A study of Mus musculus with 4 samples.

Results

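The genes of the mitochondrial respiratory chain and ATP synthase were taken from the single-cell data by their symbols. A feature was a member if its symbol began with Nduf followed by the letter a, b, c, s or v and a number, was Sdha, Sdhb, Sdhc or Sdhd, began with Uqcr, Cox4 to Cox8 or Atp5, or was a protein-coding gene of the mitochondrial genome with the prefix mt-. Pseudogene names ending in -ps were left out. This gave 99 members of 32227 features, 86 encoded in the nucleus and 13 in mitochondrial DNA. Complex I (NADH dehydrogenase) had 39 nuclear and 7 mt-encoded members, complex II (succinate dehydrogenase) 4 nuclear members, complex III (cytochrome bc1) 8 and 1, complex IV (cytochrome c oxidase) 18 and 3, and complex V (ATP synthase) 17 and 2. No measured value entered this choice.

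The libraries were made from epithelium of the jejunum and ileum of wild-type (WT) mice at postnatal day 6 (P6), in an experiment that asked how neonatal enterocytes differ between these regions. There were 4 libraries, 2 per region, and each replicate number stood for 1 mouse that gave both segments. Replicate 1 was labelled male and batch 1, and replicate 2 female and batch 2, so mouse, labelled sex and batch cannot be told apart, and each p-value below rests on 2 animals per region. The epithelium was released with EDTA and dissociated with dispase, and cells were barcoded with PIP-seq, a droplet method that counts each captured transcript once by a unique molecular identifier (UMI). The labels name no transgene, knockout or drug.

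The sex labels did not match the data. On the counts-per-million scale used below (CPM, the UMIs of a gene as a share of all UMIs), the pair of libraries labelled male had 575 and 466 CPM of Xist, the RNA of the inactive X chromosome, and the pair labelled female 0.705 and 0.907 CPM. For Eif2s3y, a gene of the Y chromosome, the values were 0.0115 and 0.119 CPM in the first pair and 88.1 and 67.0 CPM in the second. Each mouse gave both regions, and the sex label entered no model. The main tests of region had region as their sole term, so differences between the mice stayed in their spread. The mouse as a replicate block was an alternative. The libraries held between 57951874 and 131400239 UMIs, more in the ileum, and cells with 1000 to 6000 genes and an mt- share of UMIs under 20% were kept: 7300 and 8502 in the ileum against 8997 and 5722 in the jejunum. The median kept cell had 12048 and 10916 UMIs in the ileum against 4690 and 5884 in the jejunum. A called barcode was shared between libraries in 2 pairs of libraries (1 barcode each), and 0 barcodes of kept cells were. Clusters made without the members held 26782 enterocyte-like and 2165 stem/progenitor-like cells. In every library 13 of 15 enterocyte markers were higher in the first class and 14 of 14 stem and proliferation markers in the second. The same lists had named the clusters, so these counts describe the classes and are no separate check of them.

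The respiratory chain passes electrons from NADH (complex I) and succinate (complex II) through complex III to oxygen at complex IV, and the proton gradient built on the way drives ATP synthesis by complex V. Complexes I, III, IV and V are assembled from subunits of both genomes, whereas complex II is wholly nuclear. Nuclear subunits are made in the cytosol and imported, while the mt-encoded subunits are transcribed as long precursors inside the organelle and form the catalytic or proton-moving cores. Enterocytes of the suckling intestine absorb milk fat and protein and are rich in mitochondria.

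Among the nuclear members, Cox6b2, Ndufa1 and Sdhd passed a test of region in at least 1 cell class, so their promoter windows are shown. Each runs from 250 bases before to 50 bases after the annotated start (RefSeq, GRCm38.p6, an older build than the GRCm39 of the counts), 5′ to 3′ on the gene's strand, with capitals marking a match to an ETS-type motif. Cox6b2 lies at chr7:4753045-4753344, Ndufa1 at chrX:37191189-37191488 and Sdhd at chr9:50603800-50604099, all on the minus strand.
Cox6b2: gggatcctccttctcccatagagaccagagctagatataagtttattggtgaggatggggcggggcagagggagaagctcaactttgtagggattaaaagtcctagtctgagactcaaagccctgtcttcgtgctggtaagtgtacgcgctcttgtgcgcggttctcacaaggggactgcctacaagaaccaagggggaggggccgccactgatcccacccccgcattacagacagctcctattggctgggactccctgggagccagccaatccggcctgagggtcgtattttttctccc
Ndufa1: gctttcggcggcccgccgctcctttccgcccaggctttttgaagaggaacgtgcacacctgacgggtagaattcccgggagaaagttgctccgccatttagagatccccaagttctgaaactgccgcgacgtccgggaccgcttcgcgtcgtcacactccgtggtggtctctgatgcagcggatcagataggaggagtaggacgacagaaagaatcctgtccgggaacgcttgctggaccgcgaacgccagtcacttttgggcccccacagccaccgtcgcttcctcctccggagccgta
Sdhd: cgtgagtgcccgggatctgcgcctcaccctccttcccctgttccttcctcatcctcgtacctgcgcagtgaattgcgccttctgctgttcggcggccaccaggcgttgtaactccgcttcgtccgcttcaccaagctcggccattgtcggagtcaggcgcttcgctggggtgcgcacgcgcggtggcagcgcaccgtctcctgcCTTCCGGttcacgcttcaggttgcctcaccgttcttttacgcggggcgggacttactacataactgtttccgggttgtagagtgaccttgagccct

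The letters of 3 motifs known from respiratory chain promoters were searched on both strands: GCGCATGC for NRF1, CCGGAAG for ETS factors and AAGATGGC for YY1. A promoter entry was found for 69 of the 99 members, 5 of them with more than 1 start, which gave 74 windows. The NRF1 letters were in 10 of 74 windows (13.5%) against 2.71% of all 32841 windows, the ETS letters in 17 (23.0%) against 8.86%, and the YY1 letters in 10 (13.5%) against 2.75%. At least 1 of the motifs was in 31 windows (41.9%) against 13.3% of all windows. Sdhd carried 1 ETS match and the windows of Cox6b2 and Ndufa1 none of the 3 letter strings.

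The first question was whether the chain as a whole differed between jejunal and ileal enterocytes. In enterocyte-like cells the 86 nuclear members together were at 19978 and 24074 CPM in ileum 1 and 2 and at 24568 and 30385 CPM in jejunum 1 and 2. Both jejunal libraries lay above both ileal ones, although ileum 2 and jejunum 1 were close. The means were 22026 ± 2896 and 27476 ± 4113 CPM (SD, n = 2 each), 1.25-fold higher in the jejunum, and the log2 ratio of ileum over jejunum was -0.30 in mouse 1 and -0.34 in mouse 2. The 13 mt-encoded members were at 36567 and 39201 CPM in the ileum against 57514 and 78394 CPM in the jejunum, 1.79-fold higher in the jejunum (log2 -0.65 and -0.9999 by mouse). Since these 13 were all the mt- features in the files, the limit on the mt- share of a cell was a limit on their own level, and the stricter limit of 10% is given below.

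The jejunal surplus of nuclear members was seen in the share of UMIs, not in the UMIs counted per cell. Such counts also depend on depth, which differed between the regions, so they do not give the number of molecules in a cell. An enterocyte-like cell held on average 257 and 289 UMIs of nuclear members in the ileum against 167 and 254 in the jejunum, where fewer UMIs were counted in all. Of mt-encoded members it held 470 and 470 UMIs in the ileum against 391 and 656 in the jejunum, and these overlapped. CPM values are shares of the UMIs counted, so a gain in the chain's share and a loss of other transcripts cannot be told apart.

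The mt-encoded UMIs exceeded the nuclear UMIs of complexes I, III, IV and V by a factor of 1.90 and 1.68 in the ileum against 2.42 and 2.67 in the jejunum. The ratio does not depend on the library total and did not overlap between regions (1.79 ± 0.15 and 2.54 ± 0.18, SD, n = 2 each). It was higher in the jejunum for every complex with subunits of both genomes. The mean ratio was 2.00 in the ileum and 2.88 in the jejunum for complex I, 3.18 and 4.195 for complex IV, and 0.69 and 1.08 for complex V. Complex III, in which mt-Cytb is the sole mt-encoded subunit, had the widest gap, at 1.27 and 2.37. A UMI marks a captured transcript near its poly(A) end, so a ratio between genomes also carries how well each kind of transcript is captured.

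Under the stricter limit the difference in ratio was no longer seen. A limit of 10% kept 6155 and 7061 enterocyte-like cells in the ileum but 5861 and 2447 in the jejunum, from 6367, 7521, 7917 and 4977 under 20%. The ratio was then 1.84 and 1.58 in the ileum against 1.88 and 1.70 in the jejunum, and the regions overlapped. The nuclear sum kept its difference, at 20057 and 24342 CPM in the ileum against 25432 and 31955 CPM in the jejunum. The mt-encoded sum was at 35643 and 37340 CPM in the ileum against 46123 and 52444 CPM in the jejunum, a log2 difference of -0.43 against -0.84 under the 20% limit. Complex III was the exception, with a ratio of 1.21 ± 0.12 in the ileum and 1.63 ± 0.23 in the jejunum (SD, n = 2 each) and no overlap.

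**Figure D1:**
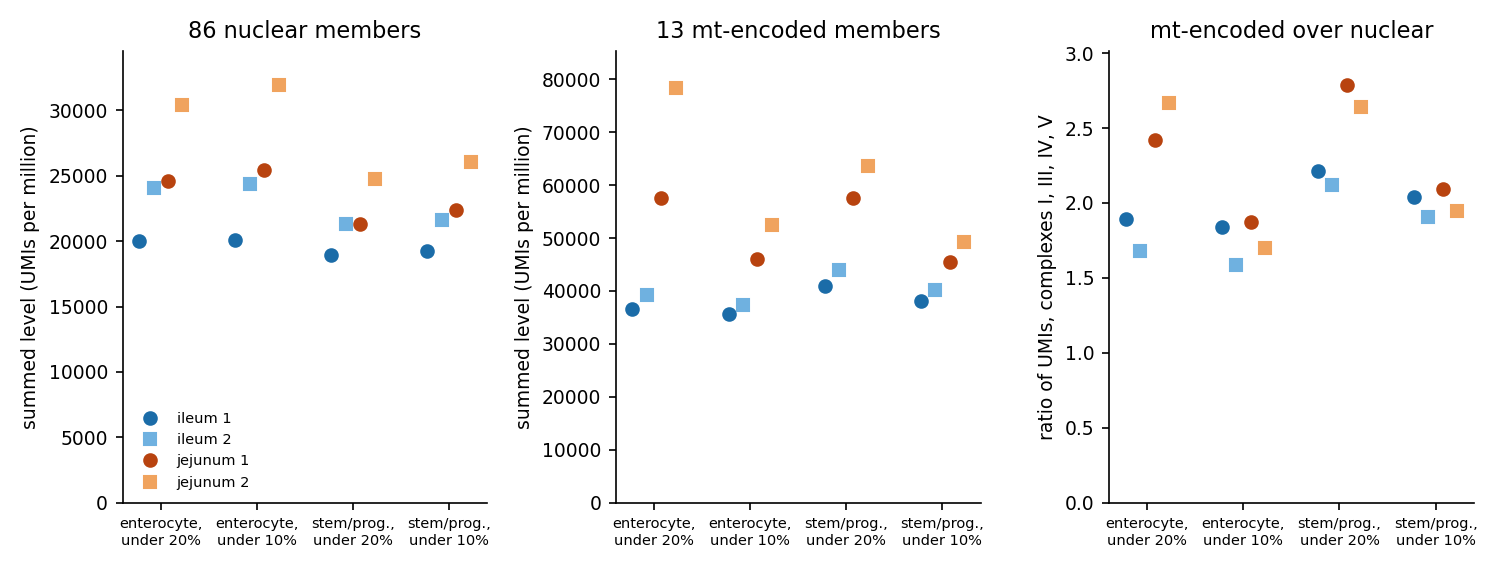
Summed level of the 86 nuclear members (left) and 13 mt-encoded members (middle), in CPM, and the ratio of mt-encoded to nuclear UMIs (right), for each of the 4 libraries (1 point each) in enterocyte-like and stem/progenitor-like cells under mt- share limits of 20% and 10%. Nuclear levels in enterocyte-like cells are higher in both jejunal libraries under both limits, while the ratio separates the regions under 20% and overlaps under 10%.

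The libraries differed in depth, so enterocyte-like cells were also compared at like UMI totals. In cells with 4000 to 8000 UMIs the nuclear members were at 17630 and 18370 CPM of the non-mt UMIs in the ileum against 24283 and 30745 in the jejunum, and in each of 5 depth ranges both jejunal libraries lay above both ileal ones. The ratio of mt-encoded to nuclear UMIs was lowest in the deepest range in every library. It lay between 2.93 and 4.97 in cells with 1000 to 2000 UMIs and between 1.25 and 1.56 in cells with 16000 or more. It was separate between regions in the 2 shallowest ranges and overlapped in the 3 deepest, where cells with 4000 to 8000 UMIs gave 3.63 and 4.05 in the ileum against 3.21 and 4.78 in the jejunum. The jejunum had more of its cells in the shallow ranges, in which the ratio was high. The part of this in the regional difference of the ratio was not tested.

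**Figure D2:**
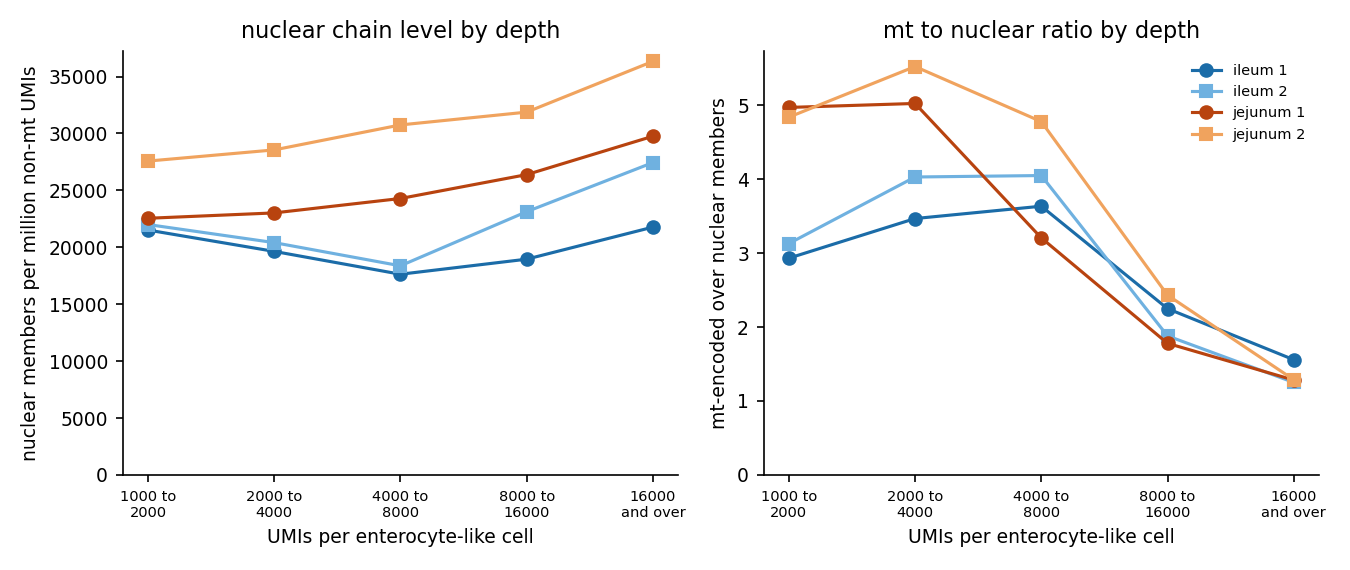
Level of the nuclear members in CPM of the non-mt UMIs (left) and mt-encoded over nuclear UMIs (right) in enterocyte-like cells of 5 ranges of UMIs per cell, 1 line per library. The jejunal lines lie above the ileal ones throughout the left panel, while on the right all 4 lines meet at 16000 UMIs and over, between 1.25 and 1.56.

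The nuclear level also varied with the mt- share of a cell. Over cells of all classes with a share of 2 to 4%, the nuclear members were at 21643 and 26831 CPM of the non-mt UMIs in the ileum against 28210 and 33882 in the jejunum. In cells with a share of 15 to 20% they were at 11682 and 12170 in the ileum, but at 21125 and 30465 in the jejunum. The nuclear level of ileal cells was thus lower at a high mt- share, and that of jejunum 2 was nearly flat. Only 42 and 120 ileal cells lay in that last range, against 717 and 1188 jejunal cells.

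Single members were tested with edgeR's quasi-likelihood test on UMI sums per library, over all 19683 features that passed a filter on low counts in enterocyte-like cells, with Benjamini-Hochberg adjustment. Of the 86 nuclear members 82 were tested, and 1 rose and 1 fell in the ileum, 2.44% of those tested, against 7.07% of all features (4.09% higher and 2.98% lower in the ileum). Of the 13 mt-encoded members 3 fell. With the mouse as a replicate block, 1 nuclear member rose, 25 fell and 8 mt-encoded members fell, where 14.0% of all features were called (7.74% higher and 6.21% lower). The log2 fold change of ileum over jejunum was negative for 76 of the 82 nuclear members, with a median of -0.38, and for all 13 mt-encoded members, with a median of -0.90, beside -0.01 over all features. Both jejunal libraries lay above both ileal ones for 41 of 82 nuclear and 13 of 13 mt-encoded members, against 25.1% of all features, and the ileum lay above for 5 and 0, against 37.4%.

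Complex I, which takes electrons from NADH, held the nuclear member that fell. Ndufa1, a small X-linked membrane subunit, was at 137 and 150 CPM in the ileum against 226 and 280 CPM in the jejunum, with no overlap. Its log2 fold change was -0.93 (SE 0.18, adjusted p = 0.046 by edgeR's quasi-likelihood test), and -0.83 and -0.94 by mouse. Without ileum 1, ileum 2 or jejunum 2 in turn it was not called, the adjusted p over the 4 leave-one-out fits being 0.020 to 0.165. The other end of complex I was Ndufb4, an accessory subunit, at 147 and 173 CPM in the ileum against 106 and 115 CPM in the jejunum (log2 0.43, adjusted p = 0.16). Over the 37 tested nuclear members of the complex the median was -0.32.

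Complex II had 4 members, all with a negative fold change. Sdhd, a membrane anchor, was at 68.3 and 57.2 CPM in the ileum against 90.6 and 120 CPM in the jejunum (log2 -0.87, adjusted p = 0.060). It was not called here, but it was with the mouse as a replicate block (adjusted p = 0.046) and in cells of 4000 to 8000 UMIs. Sdhb, the iron-sulfur subunit and the most abundant of the 4, was at 213 and 252 against 271 and 350 CPM (log2 -0.53, adjusted p = 0.17), and Sdhc, the other anchor, had the smallest difference (log2 -0.29, adjusted p = 0.27).

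In complex III no nuclear member was called, with 8 of 8 negative and a median of -0.34. Uqcrfs1, the Rieske iron-sulfur protein, was at 179 and 207 CPM in the ileum against 212 and 359 CPM in the jejunum (log2 -0.68, adjusted p = 0.20), with jejunum 2 far above the other 3. The smallest difference was that of Uqcrb (log2 -0.19, adjusted p = 0.41), and the most abundant member, Uqcrq, was at 593 and 722 against 653 and 774 CPM, so its regions overlapped.

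Complex IV, the oxidase, held the nuclear member that rose. Cox6b2, the form of subunit VIb best known from testis, was at 30.2 and 31.7 CPM in the ileum, from 2465 and 2860 UMIs, and at 15.2 and 10.9 CPM in the jejunum, from 819 and 453 UMIs. The ileal libraries agreed closely and lay well above both jejunal ones. The log2 fold change was 1.14 (SE 0.19, adjusted p = 0.033 by edgeR's quasi-likelihood test), and 0.88 and 1.51 by mouse. It was not called without ileum 1, ileum 2 or jejunum 2 (adjusted p 0.013 to 0.097 over the 4 fits), nor in cells of 4000 to 8000 UMIs, where the values were 20.4 and 28.2 against 19.1 and 14.1 CPM (log2 0.33, adjusted p = 0.49). Its ubiquitous partner Cox6b1 was at 384 and 408 against 473 and 596 CPM (log2 -0.54, adjusted p = 0.13). Cox4i1, the most abundant nuclear subunit of the complex, was at 781 and 940 against 988 and 1210 CPM (log2 -0.46, adjusted p = 0.20). The lowest fold change belonged to Cox6a2, the muscle form of subunit VIa, at 0, 4, 9 and 15 UMIs in ileum 1, ileum 2, jejunum 1 and jejunum 2 (adjusted p = 0.088), too few to give a fold.

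Complex V had the lowest median of the nuclear groups, -0.51 over 17 members, none of them called without the replicate block. With the block 7 of 17 were called lower in the ileum, against 6.21% of all features. Atp5a1, the alpha subunit of the catalytic head, was at 531 and 671 CPM in the ileum against 895 and 1031 CPM in the jejunum (log2 -0.78, adjusted p = 0.077, and 0.020 with the block). Atp5g3, a gene for the membrane ring subunit c and the most abundant nuclear member of all, was at 760 and 908 against 1069 and 1242 CPM (log2 -0.58, adjusted p = 0.12, and 0.038 with the block). Atp5l, the membrane subunit g, was at 256 and 296 against 213 and 286 CPM, with overlap and a log2 fold change of 0.04.

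The mt-encoded members had larger differences than most nuclear ones. mt-Cytb, the core of complex III, was at 2925 and 3085 CPM in the ileum against 5701 and 7476 CPM in the jejunum (log2 -1.24, SE 0.21, adjusted p = 0.034). mt-Atp6, the proton channel subunit of complex V, was at 4454 and 4527 against 8110 and 10650 CPM (log2 -1.17, SE 0.21, adjusted p = 0.038). mt-Nd2 of complex I was at 1955 and 2162 against 3375 and 4402 CPM (log2 -1.03, SE 0.21, adjusted p = 0.049). These were the 3 called, all by edgeR's quasi-likelihood test, and under the 10% limit mt-Cytb and mt-Atp6 were called but mt-Nd2 was not. Under that limit on all cells without classes mt-Cytb was the sole mt-encoded call. Without ileum 1 or ileum 2 none of the 3 was called.

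The other 10 mt-encoded members had log2 fold changes between -0.59 and -0.97, and adjusted p-values from 0.053 to 0.19. In complex I, mt-Nd1 was at -0.90, mt-Nd3 at -0.83, mt-Nd4 and mt-Nd4l at -0.97 each, mt-Nd5 at -0.66 and mt-Nd6 at -0.59. The oxidase subunits mt-Co1, mt-Co2 and mt-Co3 were at -0.77, -0.91 and -0.87, and mt-Atp8 of complex V at -0.73. mt-Co3 was the most abundant, at 8410 and 9722 CPM in the ileum against 13019 and 17693 CPM in the jejunum. mt-Nd6, the sole member of the 13 on the other strand of the mitochondrial genome, was the least, at 12.5 and 9.84 against 12.9 and 18.0 CPM. mt-Atp8 overlaps mt-Atp6 and mt-Nd4l overlaps mt-Nd4, so UMIs of these pairs may have been assigned to either gene, and nuclear copies of mt- genes may take or give UMIs.

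**Figure D3:**
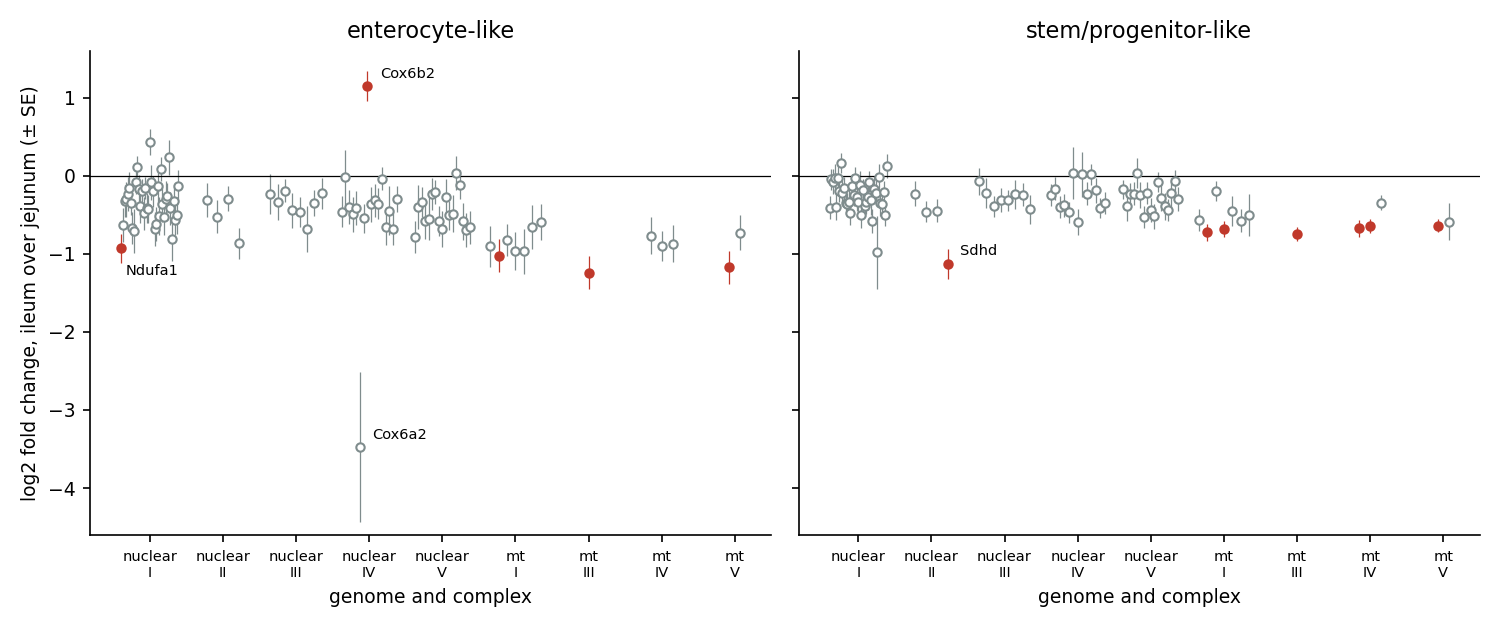
Log2 fold change of ileum over jejunum (points, with standard error) for every tested member, by genome and complex, in enterocyte-like (left) and stem/progenitor-like (right) cells; filled red points had an adjusted p under 0.05. Most points lie below 0, the mt-encoded ones lower than most nuclear ones, and Cox6b2 stands above on the left only.

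The make-up of the mt-encoded pool is given as a description. mt-Cytb made up 7.998 and 7.87% of mt-encoded UMIs in ileal and 9.91 and 9.54% in jejunal enterocyte-like cells, and mt-Atp6 12.2 and 11.5% against 14.1 and 13.6%. mt-Co1 made up 8.51 and 7.33% in the ileum against 6.55 and 7.17% in the jejunum, and mt-Nd3 5.97 and 6.22% against 5.79 and 5.44%. The first pair took a larger and the second pair a smaller part in both jejunal libraries, with n = 2 per region and no test. mt-Nd2 also took a larger part there and mt-Co3, mt-Nd5 and mt-Nd6 a smaller one, while the remaining mt-encoded members overlapped. In stem/progenitor-like cells mt-Cytb and mt-Nd3 kept their order and mt-Atp6 overlapped. mt-Co1 went the other way there, at 6.04 and 5.61% in the ileum against 6.17 and 6.47% in the jejunum.

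At like UMI totals the calls in enterocyte-like cells were of nuclear members. Such a range matches UMIs, not clusters. The enterocyte-like cluster 3, which had a low nuclear level (mean 12011 CPM), had a median of 6987 UMIs. It held 532 and 1035 ileal against 498 and 206 jejunal cells at all depths. The part of cluster make-up in these calls was not tested. In enterocyte-like cells with 4000 to 8000 UMIs, a range chosen after the data were seen, 0 nuclear members rose and 15 fell in the ileum, of 79 tested, against 6.56% of all features, by the same edgeR quasi-likelihood test. Among them were Ndufa1, Ndufb3, Ndufb7, Ndufb8, Ndufc1, Ndufs7 and Ndufs8 of complex I, Sdhb and Sdhd of complex II, Cox5b, Cox7b and Cox7c of complex IV, and Atp5a1 and Atp5h of complex V. The median over the tested nuclear members was -0.76, and no mt-encoded member was called although their median was -0.88. Ndufa1 was at 121 and 108 CPM in the ileum against 242 and 299 CPM in the jejunum there (log2 -1.49, adjusted p = 0.0080). In stem/progenitor-like cells of that range the calls were of mt-encoded members, with 0 of 77 nuclear and 11 of 13 mt-encoded members called, all 11 lower in the ileum, against 2.62% of all features.

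Stem/progenitor-like cells were examined next, since their libraries differed little in depth (median 5475, 4631, 4770 and 5965 UMIs per cell). The nuclear members were at 18974 and 21305 CPM in the ileum against 21288 and 24784 CPM in the jejunum, which overlapped. The mt-encoded members were at 40859 and 44028 against 57588 and 63528 CPM, without overlap and 1.43-fold higher in the jejunum. The ratio was 2.21 and 2.12 in the ileum against 2.78 and 2.64 in the jejunum, and under the 10% limit 2.04 and 1.90 against 2.09 and 1.95, which overlapped.

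Of the nuclear members 79 were tested, and 0 rose and 1 fell, against 3.81% of 13030 features called (2.34% higher and 1.47% lower in the ileum). Sdhd fell, at 27.2 and 23.4 CPM in the ileum against 46.4 and 61.3 CPM in the jejunum (log2 -1.13, SE 0.19, adjusted p = 0.011 by edgeR's quasi-likelihood test), and it was called with each library left out in turn, but not in cells of 4000 to 8000 UMIs (adjusted p = 0.15). Both jejunal libraries lay above both ileal ones for 44 of the 79, against 20.9% of all features, and the ileum lay above for 1, against 26.5%. Of the 13 mt-encoded members 6 fell, namely mt-Nd2, mt-Nd4, mt-Cytb, mt-Co1, mt-Co2 and mt-Atp6, with log2 fold changes of -0.64 to -0.74. mt-Cytb, at 4033 and 4010 against 6457 and 6655 CPM, had an adjusted p of 0.0022 by edgeR's quasi-likelihood test and remained called in all 14 alternatives that could hold it. Without jejunum 2, mt-Co1 and mt-Nd4 were not called (adjusted p = 0.093 and 0.065). The medians were -0.25 over nuclear and -0.59 over mt-encoded members. With the mouse as a replicate block 27 nuclear and 9 mt-encoded members fell and 0 rose, where 11.8% of all features were called (6.61% higher and 5.19% lower).

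Whether the regional difference itself differed between the classes was tested as an interaction in edgeR. Of 80 nuclear members 12 were called, 2 with a more positive and 10 with a more negative ileum over jejunum difference in enterocyte-like cells, and of 13 mt-encoded members 5 were more negative. Over all 19286 features 10.7% were called, 5.30% more positive and 5.43% more negative. Ndufa4, named after complex I but also assigned to the oxidase, differed most clearly. In enterocyte-like cells it was at 629.7 and 823 CPM in the ileum against 1034 and 1126 CPM in the jejunum. In stem/progenitor-like cells the order was the opposite, with 1027 and 1049.6 against 858 and 949 CPM. The difference of the log2 fold changes was -0.87 (SE 0.14, adjusted p = 0.00073), and it was called in all 14 alternatives.

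Ndufb4 went the other way. It was at 90.5 and 90.0 CPM in ileal and 112 and 111 CPM in jejunal stem/progenitor-like cells, below the jejunum there and above it in enterocyte-like cells, with a difference of 0.74 (SE 0.15, adjusted p = 0.0042). It was called in 13 of 14 alternatives, the exception being cells of 4000 to 8000 UMIs (adjusted p = 0.63). Cox6b2 was at 8.61 and 6.60 against 6.54 and 7.90 CPM in stem/progenitor-like cells, 22 to 31 UMIs per library, and its difference of 1.10 (SE 0.32, adjusted p = 0.035) was called in 9 of 14 alternatives. It was lost without ileum 2 or jejunum 2, with the members kept in the clustering, with sums thinned to the smallest library total and in cells of 4000 to 8000 UMIs (log2 0.50, adjusted p = 0.78). The ATP synthase subunits Atp5o, Atp5a1, Atp5e and Atp5j2 had differences of -0.64, -0.63, -0.60 and -0.46, and the complex I subunits Ndufa10, Ndufa1, Ndufb7 and Ndufa5 of -0.59, -0.54, -0.53 and -0.51. Cox7b, a small oxidase subunit, was at -0.49. Atp5o, which joins the head of the synthase to its stalk, was at 341 and 433 against 514 and 651 CPM in enterocyte-like cells and at 555 and 644 against 569 and 658 CPM in stem/progenitor-like cells. The mt-encoded ones were mt-Nd3 (-0.63), mt-Atp6 (-0.53), mt-Co3 (-0.52), mt-Cytb (-0.50) and mt-Nd4l (-0.50), none of which was called in cells of 4000 to 8000 UMIs, where their differences lay between -0.11 and 0.083. Under the 10% limit mt-Nd3 was the sole mt-encoded call. Without jejunum 2 only 3 members were called, Ndufa4 and Ndufb4 among them, and without ileum 1 only 8 were.

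**Figure D4:**
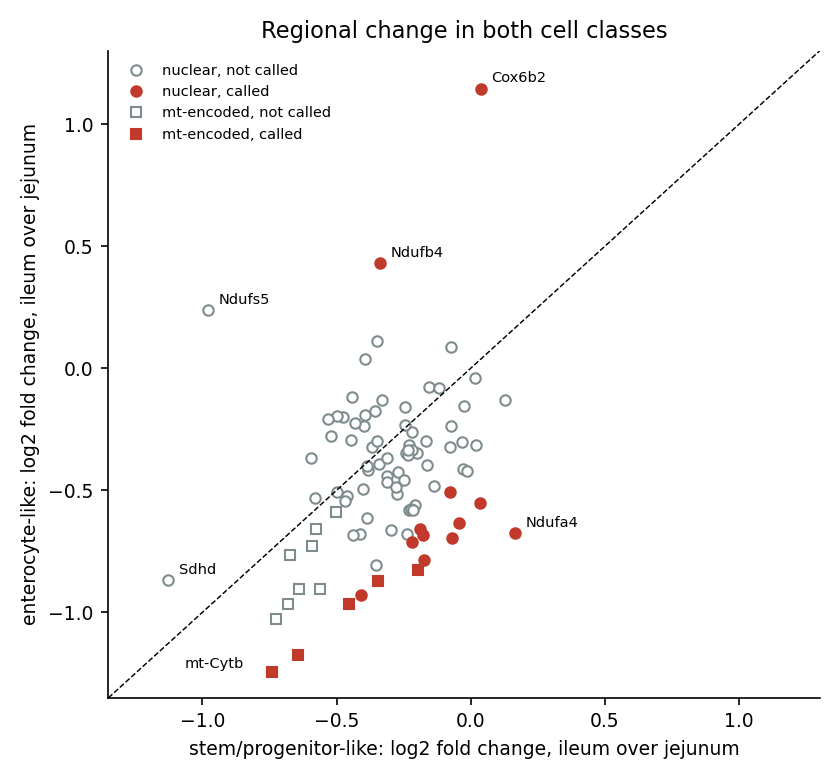
Log2 fold change of ileum over jejunum in stem/progenitor-like (x) and enterocyte-like (y) cells for each member tested in both; filled red symbols had a called difference between the classes, squares are mt-encoded, and the dashed line marks equal change. Ndufa4 lies below the line and Ndufb4 and Cox6b2 above it.

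The levels of the classes themselves are given as a description, since the classes came from clusters of the same cells. Within a library the nuclear members were higher in enterocyte-like than in stem/progenitor-like cells by a log2 of 0.07, 0.18, 0.21 and 0.29 in ileum 1, ileum 2, jejunum 1 and jejunum 2. The mt-encoded members showed no common direction, with a mean of -0.01 ± 0.22 (SD, n = 4). The difference was 0.47 ± 0.05 for complex II, 0.30 ± 0.02 for III and 0.29 ± 0.09 for IV, and smaller for I (0.17 ± 0.11) and V (0.07 ± 0.12). In cells of 4000 to 8000 UMIs the mean over the nuclear members was 0.02 ± 0.27 (SD, n = 4). The part of depth in the difference was not tested. Of the 79 nuclear members tested in both classes 42 were higher in enterocyte-like cells in all 4 libraries and 11 lower, and their median was 0.23. Over all 13003 features 26.0% were higher and 53.7% lower in all 4, and the median was -0.47.

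Among single members Cox6b2 (1.44), Sdhd (1.14), Cox7a1 (1.13), Ndufa1 (1.11), Uqcrq (1.02) and Ndufa6 (1.00) had the highest mean log2 ratios of enterocyte-like over stem/progenitor-like cells. Atp5g2 (-0.53), Ndufa10 (-0.47), Ndufv1 (-0.44), Atp5o (-0.36) and Atp5g1 (-0.36) had the lowest. Ndufv1 carries the NADH binding site of complex I. In enteroendocrine-like cells, 46 to 75 per library, the nuclear members were at 15107 and 14750 CPM in the ileum against 14831 and 15335 CPM in the jejunum, the lowest level of the 3 classes in every library and nearly equal between regions.

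Several subunits have paired genes whose products are used in different tissues. Cox6b2 made up 7.28 and 7.22% of Cox6b UMIs in ileal and 3.11 and 1.79% in jejunal enterocyte-like cells, against 1.59 to 2.55% in stem/progenitor-like cells. Cox7a1, the heart and muscle form of subunit VIIa, made up 5.90 to 8.05% of Cox7a UMIs in enterocyte-like and 2.59 to 4.69% in stem/progenitor-like cells, with no separation of the regions. The 3 genes Atp5g1, Atp5g2 and Atp5g3 encode the same mature ring subunit with different import signals. Atp5g3 made up 66.35 and 66.29% of their UMIs in ileal and 71.6 and 71.5% in jejunal enterocyte-like cells, and 54.5 to 58.8% in stem/progenitor-like cells.

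Other tissue-restricted forms were close to absent. Cox4i2 had 8 to 20 UMIs per library in enterocyte-like cells, Cox7b2 19 to 29, Ndufa4l2 1 to 3 and Cox8c 1 in all, and Cox8b and Ndufb11b had none. Cox8b, Cox8c, Ndufa4l2 and Ndufb11b were the 4 members not tested there, and Cox4i2, Cox6a2 and Cox7b2 were also not tested in stem/progenitor-like cells. The common forms Cox6a1 (580 CPM, mean of 4 libraries), Cox6c (494), Cox8a (414), Cox7a2 (378) and Cox7a2l (363) were well measured, and none was called between regions without the replicate block. With it Cox6a1, Cox6c and Cox8a fell in stem/progenitor-like cells (adjusted p = 0.023, 0.00068 and 0.038 by edgeR's quasi-likelihood test). Ndufs5, a complex I subunit, was at 2.90 to 4.34 CPM, far below the median nuclear member at 234 CPM. Many members have processed pseudogenes of near-identical sequence, so UMIs may have been split or dropped by the counting, and low values such as that of Ndufs5 are uncertain.

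The regional difference was then followed within clusters, as a description. Of 14 enterocyte-like clusters with at least 20 cells in every library, the mean nuclear level was higher in the jejunum in 14 and did not overlap in 10. The mt- share did not overlap in any of the 14, with the jejunum above, and the ratio of mt-encoded to nuclear UMIs did not overlap in 12. These cluster values are for cells under the 20% limit and were not matched for UMIs per cell. Over all enterocyte-like cells the ratio overlapped between regions under the 10% limit and in the deeper UMI ranges. Whether the ratio within clusters would differ under those conditions was not tested. The nuclear level ran from 12011 CPM in cluster 3, led by the long non-coding RNAs Airn and Kcnq1ot1, to 30403 CPM in cluster 4, led by Aldh1a1 and the ileal bile acid binding protein gene Fabp6.

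Cox6b2 varied 39.3-fold from the highest to the lowest of these 14 clusters, with Cox7b2, which had few UMIs, next at 7.72-fold and Cox7a1 at 6.99-fold, among members above 0 in every cluster. It was at 102 and 113 CPM in ileal and 63.9 and 62.6 CPM in jejunal cells of cluster 11, and at 51.0 and 61.3 against 37.3 and 34.5 CPM in cluster 10, both led by Sprr2a2 and Enpp3 among others. In cluster 4 it averaged 2.18 CPM. The 2 clusters held 35.8 to 44.1% of its enterocyte-like UMIs, with 14.2 and 12.4% of the cells in the ileum against 9.32 and 6.41% in the jejunum. Without them Cox6b2 was at 20.4 and 22.5 CPM in the ileum against 10.7 and 7.55 CPM in the jejunum, so the regions still did not overlap. Its mean was higher in the ileum in 14 of 14 clusters and did not overlap in 11. The clusters split the cells and libraries in which Cox6b2 was called, so they are not further replicates. The share of all features with such an order within clusters is not given.

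**Figure D5:**
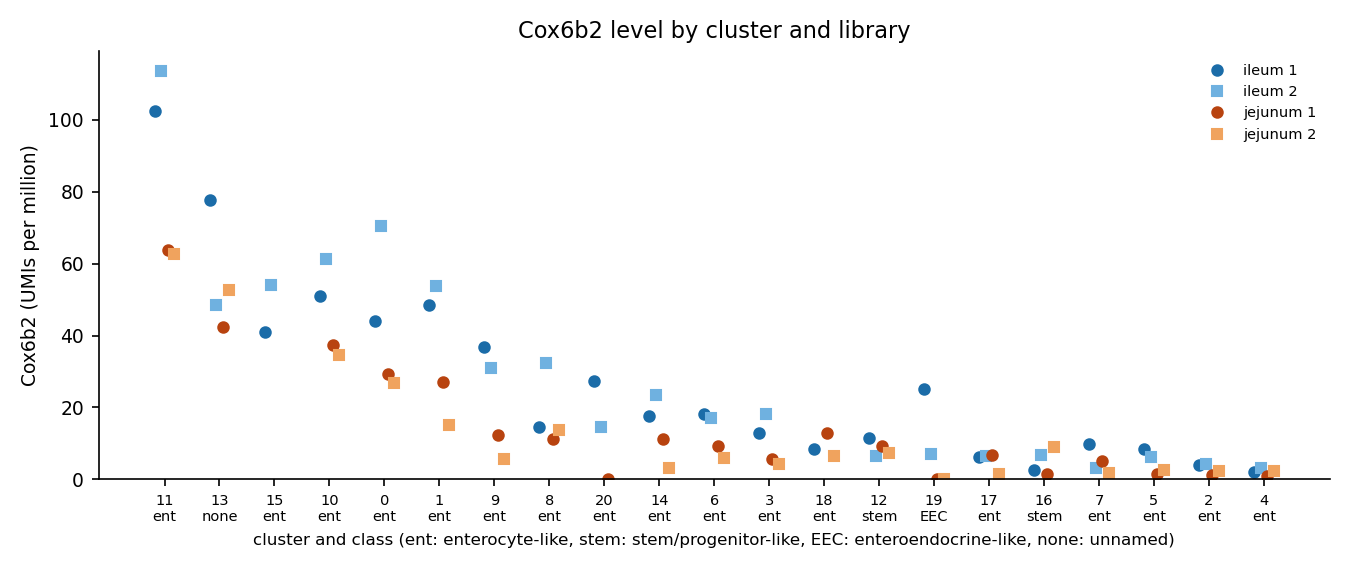
Level of Cox6b2 in CPM in each cluster, ordered by mean, with 1 point per library that had at least 20 cells of it and the class of the cluster under its number. Cluster 11 stands at the left (mean 85.6 CPM), followed by the unnamed cluster 13 (55.3 CPM), in which the regions overlap. Cluster 10 (46.0 CPM) comes after these. The ileal points lie above the jejunal ones in most enterocyte-like clusters.

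Genes around the chain were counted from lists written by hand. Over all 19683 features tested in enterocyte-like cells 7.07% were called, and 5720 had an unadjusted p under 0.05. In enterocyte-like cells 0 of 49 assembly factors were called (11 had an unadjusted p under 0.05), with a median log2 fold change of -0.07, and 0 of 78 genes of the mitochondrial ribosome (15 unadjusted), with a median of 0.02. The 6 chain genes that the name rule left out (Ndufab1, Cyc1, Cycs, Etfa, Etfb and Etfdh) had a median of -0.71 with none called by edgeR (3 unadjusted). Of 18 genes of the tricarboxylic acid cycle none was called (6 unadjusted) and the median was -0.45. Of 24 regulators Ppargc1b, a coactivator of mitochondrial genes, fell (log2 -1.81, SE 0.21, adjusted p = 0.020 by edgeR's quasi-likelihood test), and of 16 glycolysis genes Pfkm, the muscle phosphofructokinase, fell (log2 -1.08, SE 0.20, adjusted p = 0.041). The median over the glycolysis genes was -0.27. The nuclear members' median of -0.38 thus lay between those of the cycle and of glycolysis. It was further from those of the assembly factors and the ribosome.

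In stem/progenitor-like cells Cox17, a copper chaperone for the oxidase, fell (log2 -0.63, SE 0.15, adjusted p = 0.045 by edgeR's quasi-likelihood test), and it was the sole call in these lists. The difference between the classes was called for 10.7% of all features and for 4 of 49 assembly factors (Cox20 and Cmc1 more positive, Ndufaf4 and Coa5 more negative in enterocyte-like cells) and for 3 left-out chain genes (Ndufab1 more positive, Cyc1 and Cycs more negative). Among the regulators it was called for Esrrg (0.93) and Ssbp1 (0.69) upward and for Ppargc1b (-1.28) and Ppargc1a (-0.62) downward. It was more negative for 6 of 18 cycle and 4 of 16 glycolysis genes with none more positive, and more positive for 10 and more negative for 2 of 78 ribosome genes, where 5.30% of all features were more positive and 5.43% more negative.

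Markers of other cell types were summed in the enterocyte-like cells, and several lists moved with region. The 8 goblet markers were at 190 and 161 CPM in the ileum against 78.0 and 69.1 CPM in the jejunum, the 7 tuft markers at 103 and 96.4 against 87.9 and 87.6 CPM, and the 10 immune markers at 3.85 and 3.87 against 2.56 and 2.59 CPM, all higher in both ileal libraries. The 7 Paneth markers were at 21.3 and 17.5 against 41.6 and 26.9 CPM and the 14 stem and proliferation markers at 240 and 221 against 251 and 262 CPM, both lower in both ileal libraries. All markers of these lists were detected in every library, except that 6 of 7 tuft markers were detected in 3 of the 4. Few of them were above 10 CPM, namely 2 of 8 goblet, 1 of 7 tuft and 0 of 10 immune markers in each library. For the Paneth list it was 0 of 7 in the ileum and 1 of 7 in the jejunum, and for the stem and proliferation list 5 and 6 of 14. The sums may thus rest on few genes of a list. The 5 erythroid markers were at 7.14 CPM in ileum 1 and at 0.204 to 0.399 CPM in the other 3 libraries. The 7 stromal markers (34.5 to 43.4 CPM) and the 13 enteroendocrine markers (41.8 to 50.3 CPM) overlapped between regions. The 15 enterocyte markers themselves summed to 21765 and 25258 CPM in the ileum against 45369 and 46338 CPM in the jejunum. The part of these markers in the differences above was not tested.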

How the data were processed

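UMI counts per gene and cell were deposited by the authors, whose PIPseeker run (sensitivity level 3; version not given in the sources used here) aligned the reads, with build GRCm39 per the labels, and called the cells. Of 36202 called cells, those with more than 1000 and fewer than 6000 genes and an mt- share under 20% were kept, after the study's methods (30521 cells). Seurat 5.3.0 (R 4.3.3) integrated the libraries by canonical correlation over 30 dimensions, with 1990 variable genes and no member, and clustered at resolution 1 (0.5 as an alternative). Clusters were named from hand-written markers. Scrublet (scanpy 1.11.5) called 1, 1, 1 and 3 doublets at an expected 6%, so doublets were in effect not removed.

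Counts were summed per library and class, and edgeR 4.0.16 (filterByExpr, TMM, glmQLFit, glmQLFTest, Benjamini-Hochberg, threshold 0.05) tested ileum over jejunum, and the interaction of region and class with the library as a term. The script was tested on simulated data. The replicate number marks a shared animal per the design text, and libraries of the same animal deviated together (r = 0.276 over 19881 genes). No column of another sample was used (0). Python 3.11.15, pandas 2.3.3, numpy 2.4.6, scipy 1.17.1 and matplotlib 3.10.9 were used.

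Alternatives were the 10% limit, no limit, a replicate block, DESeq2 1.42.0 and its size factors, no filter on low counts, another resolution, members in the clustering, thinning, doublet removal, mt- genes left out of the totals and each library left out. The UMI range of 4000 to 8000 and the 10% limit on cells without classes were added after the data were seen. The members, lists and markers were chosen with earlier results of these data known. Members named one by one were all mt-encoded ones, those called in any test, the most abundant and the highest and lowest fold change of each complex, and paired isoforms. An item withheld from the text is not reported here.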

Additional observations from a re-analysis of the deposited data

Results flagged for a closer look

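With 2 libraries per region no library could be tested as an outlier. The results below were picked out because the ileum over jejunum log2 fold change differed between enterocyte-like and stem/progenitor-like cells by edgeR's interaction test, with 10.7% of all features called. The difference was positive for Cox6b2 (1.10) and Ndufb4 (0.74). It was negative for Ndufa4 (-0.87), Atp5o (-0.64), Atp5a1 (-0.63), Atp5e (-0.60), Ndufa10 (-0.59), Ndufa1 (-0.54), Ndufb7 (-0.53), Ndufa5 (-0.51), Cox7b (-0.49) and Atp5j2 (-0.46), and for the mt-encoded mt-Nd3 (-0.63), mt-Atp6 (-0.53), mt-Co3 (-0.52), mt-Cytb (-0.50) and mt-Nd4l (-0.50). The 2 classes also differed in median UMIs per cell in the ileum, at 14097 and 12330 for enterocyte-like against 5475 and 4631 for stem/progenitor-like cells. In the jejunum they were close, at 5021 and 6092 against 4770 and 5965. The gap in depth between the classes thus differed by region, and its part in these calls was not tested. In cells of 4000 to 8000 UMIs, 14 nuclear and 0 mt-encoded members were called by this test, all 14 negative, beside 2.92% of all features.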

How the results depend on the processing

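In enterocyte-like cells 5 members were called, against 3 with the 10% limit on all cells, 15 in cells of 4000 to 8000 UMIs, 22 with DESeq2, 2 with mt- genes left out of the totals, 0 with no filter on low counts (30 had an unadjusted p under 0.05), 34 with the replicate block and 0 to 19 with 1 library left out (19 without jejunum 1, 1 without jejunum 2). In stem/progenitor-like cells 7 became 11, 13, 1, 14 and 36 in cells of 4000 to 8000 UMIs, with DESeq2, without mt- genes, with no filter and with the replicate block, and 6 to 17 with 1 library left out. Differences between the classes, 17, became 3 to 16 with 1 library left out (8 without ileum 1, 3 without jejunum 2). The log2 level of the nuclear members, -0.32, became -0.37 under 10%, -0.36 under 10% on all cells, -0.55 in cells of 4000 to 8000 UMIs, -0.29 with no limit and -0.37 without mt- genes, and -0.46 to -0.16 with 1 library left out. The mt-encoded level, -0.84, became -0.43 and -0.41 under 10%, in enterocyte-like and in all cells (-1.05 to -0.60 with 1 library left out). The ratio, -0.51, became -0.061 and -0.054 under those limits and -0.055 in cells of 4000 to 8000 UMIs (-0.60 to -0.42). The enterocyte-like over stem/progenitor-like nuclear level, 0.19, became 0.019 in that UMI range (0.15 to 0.23), and the ratio between the classes, -0.19, turned to 0.42 there (-0.25 to -0.14). No other alternative turned the direction of these summed levels and ratios. Among the differences between the classes that of mt-Nd4l, -0.50, was 0.083 in that UMI range, and the median over the mt-encoded members, -0.31, was 0.10. The calls over all features in enterocyte-like cells were 1392 of 19683, and 1283 of 20176 with the 10% limit on all cells. In that UMI range they were 899 of 13703, and with DESeq2 3186 of 28717. Without mt- genes they were 1349 of 19807, with no filter 582 of 28717 and with the block 2746 of 19683. In stem/progenitor-like cells 496 of 13030 were called. In the order given above this became 255 of 9729, 411 of 24638, 491 of 13017, 1072 of 24638 and 1537 of 13030. The causes were not tested. The stem/progenitor-like class had no version without an mt- limit, because cells over the limit have no class. A fit that leaves 1 library in a region assumes that it varies like the others. The replicate block was not fitted to the interaction, which already has the library as a term. With 2 mice, differences within the spread between libraries were not detectable at this size.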

Other observations

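A cluster of 1240 cells (308 and 338 in the ileum, 424 and 170 in the jejunum; median 2711 UMIs) kept no name, because the goblet marker Tff3 stood among its leading genes, with Nt5e and Trf at their head. Its nuclear members were at 10899 and 12864 CPM in the ileum against 16988 and 20297 CPM in the jejunum, below the enterocyte-like cells of every library. Its mt- share was 6.42, 6.72, 12.3 and 13.5% in the same order, and its ratio of mt-encoded to nuclear UMIs was 6.12, 5.38, 7.46 and 6.84, above that of enterocyte-like cells in every library.

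Cells over the 20% limit, kept out above, were 19 and 65 in the ileum against 315 and 1007 in the jejunum. In those with a share of 20 to 40% the nuclear members were at 10794 CPM of the non-mt UMIs in ileum 2 (65 cells), 20521 in jejunum 1 (315 cells) and 29181 in jejunum 2 (1006 cells).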
